A study of Rattus norvegicus with 24 samples.

Results

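The caspases and the apoptosome genes comprise 8 genes here, Casp2, Casp8, Casp9, Apaf1, Casp6, Xiap, Diablo and Casp1, chosen by name, each with every probe set that the array annotation pairs with its symbol and no other. Further caspases on the array, Casp4 and Casp12, are given with the neighbouring genes. They were measured by 14 probe sets, of 20826 probe sets with a single symbol that stood for 14217 genes. RNA of 2 germ cell fractions was hybridised to 24 Affymetrix rat arrays, each with 31099 probe sets. The 4 groups of 6 arrays each were round spermatids of aged rats, round spermatids of young rats, pachytene spermatocytes of aged rats and pachytene spermatocytes of young rats. All animals were Brown Norway rats, aged 18 months in the aged groups and 4 months in the young groups, and the labels give no treatment. Germ cells were released from the testis with collagenase and trypsin and parted by size on a STAPUT gradient, with a stated purity of over 83%. By the labels' rat numbers each of the 12 rats gave both fractions, so the rats within a group are separate animals.

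Caspases are proteases that cut their substrates after aspartate and dismantle a cell in apoptosis. Initiator caspases are switched on by assembly on a platform. Casp9 assembles on the apoptosome, a wheel of Apaf1 that forms when cytochrome c leaves the mitochondria, Casp8 assembles under death receptors, and Casp2 on an adaptor complex with Pidd1 and Cradd. Xiap binds and blocks active caspases, and Diablo (also called Smac), released from mitochondria, removes that block. Casp1 belongs to the inflammasome and matures the cytokines interleukin-1 beta and interleukin-18. Apoptosis of germ cells is a normal part of spermatogenesis.

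The promoters of Diablo, Casp9 and Casp1 are shown as 3 of the genes with differences described below, not as the firmest results. Xiap had no matched promoter. Each run holds 250 bases before and 50 bases after the annotated start, 5′ to 3′ on the strand of the gene, from RefSeq on the GRCr8 assembly. Their positions were chr12:38716418-38716717 for Diablo, chr5:159391824-159392123 for Casp9 and chr8:10872580-10872879 for Casp1, all on the plus strand. Capitals mark matches, on either strand, to 4 short motifs of promoters. The GC box was searched as GGGCGG, the binding motif of Sp1. The CCAAT box was searched by the letters of its name. The TATA box was searched as TATAAA, and none was found in these promoters. The cAMP response motif was searched as TGACG, the core of the element bound by CREB and CREM. No matches overlap in the 3 promoters.
Diablo: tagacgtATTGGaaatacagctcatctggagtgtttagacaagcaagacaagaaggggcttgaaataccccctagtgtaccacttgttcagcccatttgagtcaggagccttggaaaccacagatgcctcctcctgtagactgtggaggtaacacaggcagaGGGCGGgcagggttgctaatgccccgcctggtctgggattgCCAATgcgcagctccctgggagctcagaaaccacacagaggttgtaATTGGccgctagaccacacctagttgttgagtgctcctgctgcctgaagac
Casp9: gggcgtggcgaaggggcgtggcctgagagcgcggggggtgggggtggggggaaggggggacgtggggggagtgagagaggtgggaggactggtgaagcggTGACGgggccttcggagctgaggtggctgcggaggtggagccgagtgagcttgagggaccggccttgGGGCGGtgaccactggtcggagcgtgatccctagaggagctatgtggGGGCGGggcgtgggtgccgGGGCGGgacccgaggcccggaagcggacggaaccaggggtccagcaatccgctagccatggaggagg
Casp1: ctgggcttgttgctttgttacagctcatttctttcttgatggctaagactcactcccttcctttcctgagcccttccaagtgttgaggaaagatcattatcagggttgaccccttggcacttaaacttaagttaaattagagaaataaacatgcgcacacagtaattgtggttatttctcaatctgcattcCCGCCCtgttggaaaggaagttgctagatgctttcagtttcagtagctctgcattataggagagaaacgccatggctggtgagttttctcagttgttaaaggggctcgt
Diablo held 1 GC box and 3 CCAAT boxes, Casp9 held 3 GC boxes and 1 cAMP response motif, and Casp1 held 1 GC box. Casp1 had the lowest share of G and C of the 3 (43.3%), against 53.3% for Diablo and 72.0% for Casp9, where the median of all 33469 rat promoters of this length was 51.7%. Of those promoters 33.1% held a GC box, 37.5% a CCAAT box, 14.2% a TATA box and 21.2% the cAMP response motif. The matches are descriptions of the letters in these windows. Promoters of 6 of the 8 genes were matched, all but Casp8 and Xiap.

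The 2 germ cell marker lists fitted the labels of the fractions. All 10 probe sets of the round spermatid list (Acr, Acrv1, Tnp1, Prm1 and others) were higher in round spermatids than in pachytene spermatocytes. Of the 12 pachytene probe sets (Sycp1, Sycp3, Piwil2 and others) 10 were lower and 2 higher. Sertoli cell markers differed between the fractions too, with 15 of 19 probe sets lower in round spermatids and 3 higher. Their median difference was -1.44, against -0.96 for the pachytene list. The cell type comparisons below are comparisons of these fractions. Within the pachytene arrays, young rats 1, 10 and 11 stood apart from the rest. Their round spermatid list averaged 13.92, 13.51 and 13.64 log2 units, against 12.92 to 13.11 in the other 3 young rats and 12.59 to 13.06 in aged rats. Young rat 10 also stood apart among the round spermatid arrays, with a mean correlation of 0.986 with the other arrays of its group, against 0.991 to 0.998 for the rest. Called age differences below are therefore also given without these 3 rats, in both cell types. The 3 rats were picked by these array values, and leaving them out keeps 3 young against 6 aged rats. Among the round spermatid arrays rats 1 and 11 did not stand apart by that correlation, at 0.994 each. A call lost without the 3 rats is also a result of fewer arrays. Because these are bulk fractions, fewer cells of a type and less RNA per cell cannot be told apart. The deposited pachytene arrays had lower signals than the round spermatid arrays: array medians lay between 7.56 and 7.86 in round spermatids, against 6.62 and 7.38 in pachytene spermatocytes. The gap was larger for the dim TrpnX control probe sets. Their mean was 6.9 in aged and 6.77 in young round spermatids, against 4.19 in aged and 4.38 in young pachytene spermatocytes. Age comparisons were therefore made within a cell type, and comparisons across cell types on a common scale.

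With age, 6 of the 14 probe sets passed the limma test (adjusted p under 0.05) in pachytene spermatocytes, 4 higher and 2 lower in aged rats. In the same test 41.9% of all single-symbol probe sets were called, 24.2% higher and 17.7% lower, so the share among these genes was near the background. In round spermatids 2 of the 14 were called, Diablo higher and Casp1 lower, where 21.2% of all were called, 10.5% higher and 10.6% lower. The median log2 difference over the 14 was 0.01 in pachytene spermatocytes and 0.00 in round spermatids, against 0.05 and 0.00 over all probe sets. Aged and young groups did not overlap for 4 of the 14 probe sets in pachytene spermatocytes, against 24.3% of all, and for 1 of the 14 in round spermatids, against 9.77% of all. The age comparison is plotted for every probe set of the 8 genes.

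**Figure D1:**
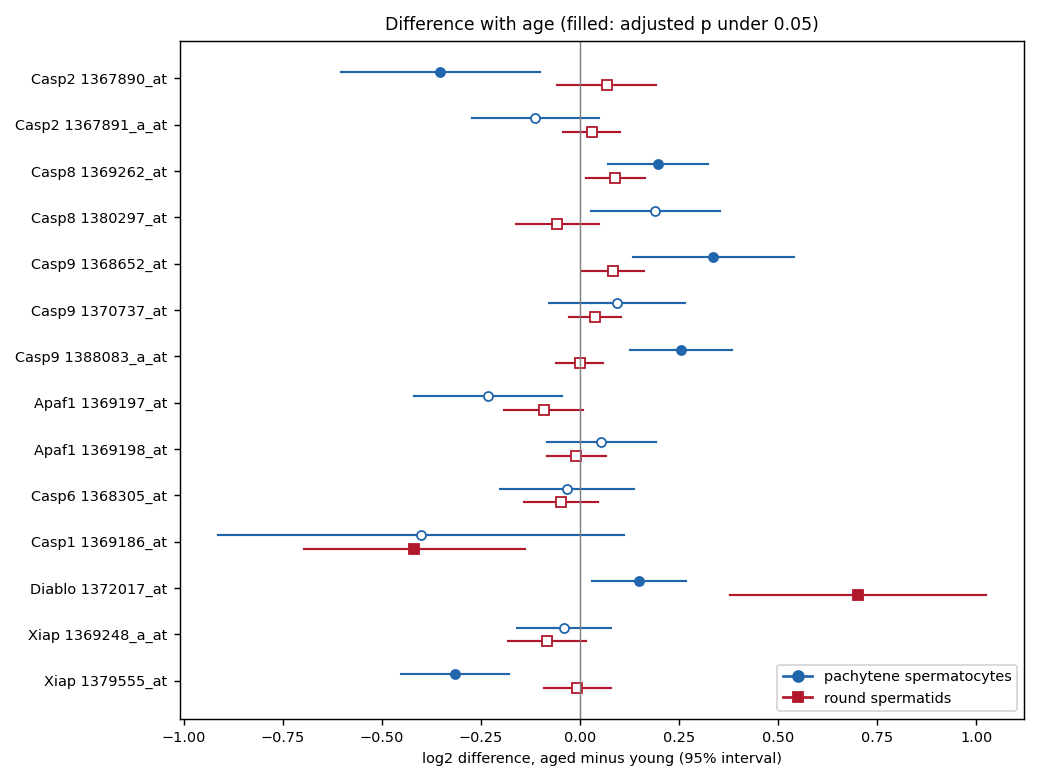
Log2 difference with age, aged minus young, for the 14 probe sets in pachytene spermatocytes (blue circles) and round spermatids (red squares), with 95% intervals from limma; filled symbols passed an adjusted p of 0.05. Diablo in round spermatids, at 0.70, has the largest difference plotted, and the Casp9 intervals lie above 0 in pachytene spermatocytes for 2 of its 3 probe sets.

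Diablo, the mitochondrial antagonist of the IAP proteins, was higher in aged rats in round spermatids. Its probe set (1372017_at) had 13.30, 13.43 and 13.63 log2 units (lowest, median, highest) in aged round spermatids, against 12.09, 12.79 and 13.18 in young round spermatids. Every aged array lay above every young one. The difference was 0.70 (SE 0.15, 95% interval 0.38 to 1.02, adjusted p = 0.00733, n = 6 each), a 1.63-fold higher level. The lowest young array was that of rat 10, at 12.09. Without young rats 1, 10 and 11 the difference was 0.41, and it was called under every scaling, left-out rat and other alternative tried. The pachytene marker list also ran higher in aged round spermatids: 5 of its 12 probe sets were called higher and none lower, and its mean lay between 10.58 and 10.81 in aged, against 10.19 and 10.60 in young rats. Sertoli cell and spermatogonia lists ran lower in aged round spermatids, with 11 of 19 and 2 of 6 probe sets called lower and none higher. Diablo itself was lower in round spermatids than in pachytene spermatocytes, and the part of these lists in the age difference was not tested.

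In pachytene spermatocytes Diablo had 14.09, 14.14 and 14.16 log2 units in aged rats, against 13.77, 14.02 and 14.07 in young rats. Here too the groups did not overlap, but the difference was small, 0.15 (SE 0.05, adjusted p = 0.0465, n = 6 each). The call was lost without 10 of the 12 rats in turn, and the difference was 0.08 without young rats 1, 10 and 11. Median centring in place of quantile normalization gave 0.52. The probe set lay near the top of the pachytene arrays, at a mean percentile of 99.8 in aged and 99.7 in young rats. The lowest pachytene array was that of young rat 1, at 13.77, where the round spermatid list was highest (13.92). In the same comparison 8 of 10 round spermatid marker probe sets were lower in aged rats (median difference -0.70), and none higher. Of the 19 Sertoli cell probe sets 16 were lower and 1 higher. The part of these markers in the Diablo difference was not tested. The age difference was larger in round spermatids than in pachytene spermatocytes by 0.54 (SE 0.16, adjusted p = 0.0295), a call that was lost without each of 6 rats in turn, with median centring (0.30) and with centring on the added-RNA controls (0.50). Without young rats 1, 10 and 11 it was 0.34 and still called. On that common scale 2 of the 14 probe sets were called for a difference of the age effect between the cell types, 1 higher and 1 lower in round spermatids, against 14.8% of all, 6.73% higher and 8.09% lower.

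**Figure D2:**
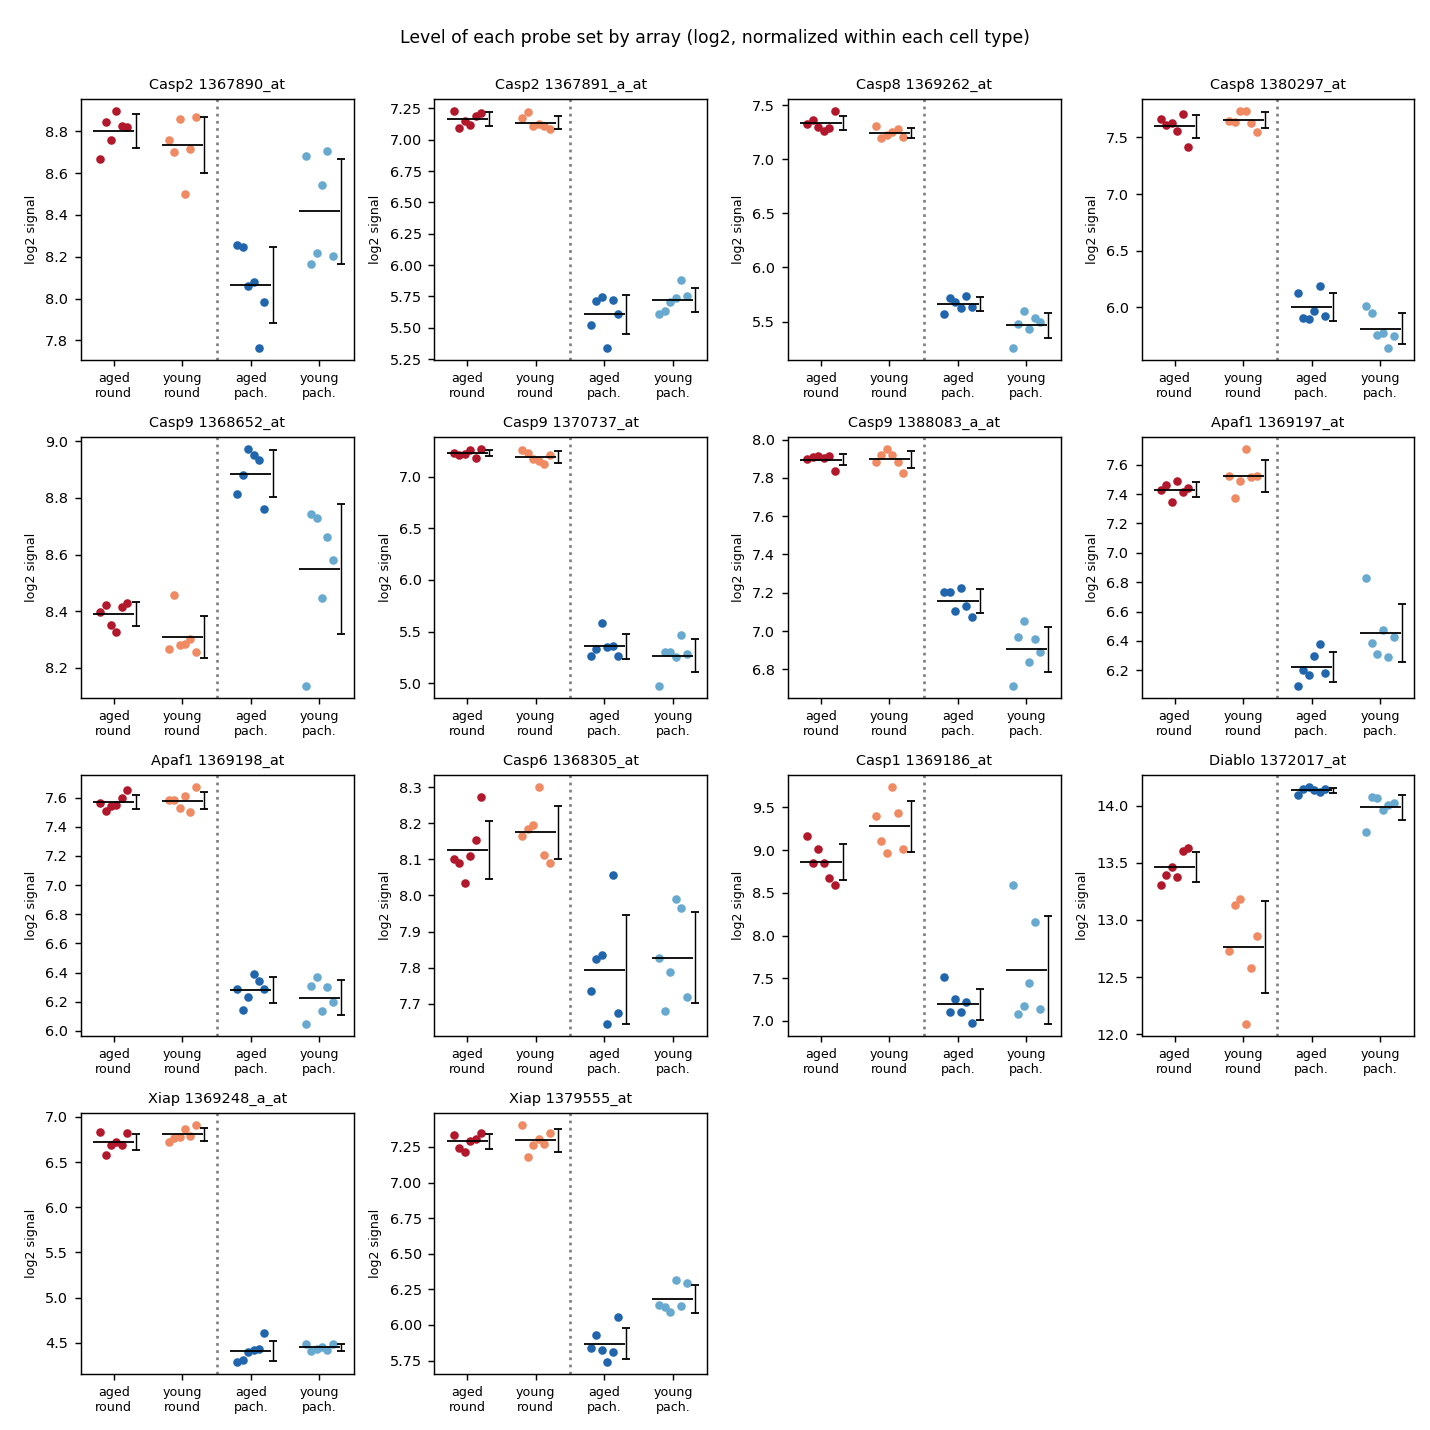
Log2 signal of each of the 14 probe sets on every array, quantile normalized within each cell type, for aged and young round spermatids and aged and young pachytene spermatocytes; points are rats, bars the mean and whiskers the SD of 6 rats. Levels left and right of the dotted line are on different scales, and Diablo in round spermatids shows all 6 aged rats above all 6 young ones.

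Casp1, the inflammatory caspase, was lower in aged round spermatids. Its probe set (1369186_at) had 8.60, 8.85 and 9.17 log2 units in aged round spermatids, against 8.97, 9.25 and 9.74 in young round spermatids. Of the aged rats 4 lay below every young rat, and the groups overlapped. The difference was -0.42 (SE 0.13, adjusted p = 0.0403, n = 6 each). The call was lost without each of 6 rats in turn, and under 3 other scalings (-0.33 to -0.16). Without young rats 1, 10 and 11 the difference was -0.17. In pachytene spermatocytes Casp1 had 6.98, 7.16 and 7.51 log2 units in aged rats, against 7.08, 7.31 and 8.60 in young rats. The 2 highest young arrays were those of rats 1 and 11, at 8.60 and 8.16, where the round spermatid markers were high too. The pachytene difference of -0.40 did not pass (adjusted p = 0.198), and without the 3 rats it was 0.07. Macrophages express Casp1, and the 22 probe sets of the macrophage and leukocyte list gave no more than 1 call in round spermatids (lower). Its mean lay between 8.15 and 8.61 in aged, against 8.18 and 8.55 in young round spermatids, which overlap. Sertoli cell markers moved in the same direction as Casp1: 11 of 19 probe sets were lower in aged round spermatids and their list mean was 7.998 to 8.37, against 8.39 to 8.93 in young rats. Spermatogonia markers did so too, with 2 of 6 probe sets lower and a list mean of 8.58 to 8.71 in aged, against 8.72 to 9.15 in young round spermatids. Between the cell types the Sertoli cell list ran opposite to Casp1, with 15 of 19 probe sets lower in round spermatids and 3 higher. The part of these cells in the Casp1 age difference was not tested.

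Casp9, the caspase of the apoptosome, was higher in aged pachytene spermatocytes on 2 of its 3 probe sets after quantile normalization. The brightest (1368652_at) had 8.76, 8.91 and 8.97 log2 units in aged rats, against 8.14, 8.62 and 8.74 in young rats. The second (1388083_a_at) had 7.07, 7.17 and 7.23 in aged rats, against 6.71, 6.92 and 7.05 in young rats. In both probe sets all aged rats lay above all young ones. The differences were 0.34 (SE 0.09, adjusted p = 0.0149) and 0.25 (SE 0.06, adjusted p = 0.00649), and both stayed called without young rats 1, 10 and 11. The direction depended on the scaling: on the values as deposited the differences were -0.062 and -0.12, where the median of all probe sets was shifted by -0.24. The third probe set (1370737_at) had a difference of 0.09 (adjusted p = 0.38). In round spermatids the 3 probe sets gave 0.08 (1368652_at), 0.04 (1370737_at) and 0.00 (1388083_a_at), and no call was made in the reported fit. There 1368652_at was called higher without young rat 2, on the values as deposited and with centring on hybridization controls. The other probe sets were called higher there on the values as deposited. On the common scale the pachytene means of 1388083_a_at were 7.80 in aged and 7.68 in young rats, closer together than within the cell type. On that scale its age effect was smaller in round spermatids than in pachytene spermatocytes (difference -0.13, limma, adjusted p = 0.0448). That call was lost without each of 10 rats in turn, and the direction turned, to 0.21 with the constant and no further scaling and to 0.050 with centring on the added-RNA controls.

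Xiap, which blocks caspases and is encoded on the X chromosome, was lower in aged pachytene spermatocytes. Its probe set 1379555_at had 5.74, 5.83 and 6.05 log2 units in aged rats, against 6.09, 6.14 and 6.31 in young rats. All aged rats lay below all young ones. The difference was -0.32 (SE 0.06, 95% interval -0.45 to -0.18, adjusted p = 0.00290, n = 6 each), and -0.30 without young rats 1, 10 and 11. It was called under every alternative that kept the probe set, which the filter on the 40% dimmest left out, and was larger, -0.64, on the values as deposited. Of the 617 single-symbol probe sets of the X chromosome 50.4% were lower with age in these cells, against 16.7% of those elsewhere, so the direction was common on that chromosome. Silencing of the sex chromosomes is a known feature of pachytene spermatocytes. Of the 19 Sertoli cell probe sets 16 were also lower in aged pachytene spermatocytes, with list means of 9.51 to 9.88 in aged, against 10.33 to 11.14 in young rats. The part of either in the Xiap result was not tested. In round spermatids the same probe set differed by -0.01. On the common scale its difference of the age effect between the cell types was 0.11 and not called (limma, adjusted p = 0.139). That difference was called with the constant and no further scaling and with centring on the added-RNA controls. The second, dim probe set (1369248_a_at) was not called with age in either cell type.

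Casp8 and Casp2, the initiators under death receptors and on the Pidd1 complex, changed in opposite directions in pachytene spermatocytes after quantile normalization, though Casp8 turned sign on the values as deposited. Casp8 (1369262_at) had 5.57, 5.66 and 5.74 log2 units in aged rats, against 5.26, 5.48 and 5.60 in young rats. Of the aged rats 5 lay above every young rat. The difference was 0.20 (SE 0.06, adjusted p = 0.0202), it was 0.14 and not called without the 3 rats, and -0.10 as deposited. The second Casp8 probe set (1380297_at) gave 0.19 (adjusted p = 0.0636). Both Casp8 probe sets were dim, at mean percentiles of 26.2 (1369262_at) and 32.3 (1380297_at) in aged pachytene arrays. Casp2 (1367890_at) had 7.76, 8.07 and 8.26 log2 units in aged rats, against 8.16, 8.38 and 8.70 in young rats. The groups overlapped, and 4 aged rats lay below every young one. The difference of -0.35 (SE 0.12, adjusted p = 0.0309) was lost without each of 7 rats in turn and was -0.13 without young rats 1, 10 and 11. The second Casp2 probe set gave -0.11 (adjusted p = 0.25). Beside these results and that of Casp9, 8 of 10 round spermatid marker probe sets were lower in aged pachytene spermatocytes (median difference -0.70), and 16 of 19 Sertoli cell ones (median difference -0.99). Their part in the Casp2, Casp8 and Casp9 differences was not tested. Apaf1, the scaffold, and Casp6, an executioner that cuts nuclear lamins, were not called with age in either cell type in the reported fit. In pachytene spermatocytes Apaf1 (1369197_at) was called lower under 3 of 7 other settings and without each of 3 rats in turn. Casp6 was called lower there under 2 of 8 other settings, the values as deposited and centring on hybridization controls. Apaf1 (1369198_at) was called lower there on the values as deposited. Apaf1 differed by -0.23 (1369197_at, adjusted p = 0.0503) and 0.05 (1369198_at) in pachytene spermatocytes and by -0.09 and -0.01 in round spermatids, and Casp6 by -0.03 and -0.05. In round spermatids Casp8 gave 0.09 (1369262_at) and -0.06, and Casp2 0.07 (1367890_at) and 0.03, with no call in the reported fit. Casp8 (1369262_at) and both Casp2 probe sets were called higher there on the values as deposited.

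Between the cell types, 12 of the 14 probe sets were called, 8 higher and 4 lower in round spermatids, against 87.0% of all single-symbol probe sets, 48.3% higher and 38.7% lower. The cell types did not overlap for 5 of the 14, against 48.4% of all. Among the 14, only Casp1 and Diablo differed by more than 2-fold on the common scale. The common scale left the 45 added-RNA controls with a mean difference of 0.17 and an SD of 0.29 log2 units between the cell types, and 8 of the 12 called differences were smaller than that SD. Calls of such size are given as values. With the 3 rats left out 11 of the 14 were called, and Casp8 (1369262_at) was not.

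Casp1 was higher in round spermatids. It had 8.87, 9.14 and 9.46 log2 units in aged and 9.27, 9.55 and 10.01 in young round spermatids, against 7.71, 7.80 and 7.99 in aged and 7.76, 7.88 and 8.65 in young pachytene spermatocytes. All 12 round spermatid arrays lay above all 12 pachytene arrays. The difference was 1.42 (SE 0.10, adjusted p = 6.15e-12), between 1.04 and 1.64 under the other scalings and 1.43 without young rats 1, 10 and 11. The macrophage and leukocyte list moved the same way, with 20 of 22 probe sets higher in round spermatids and none lower. Its mean on the common scale lay between 8.20 and 8.75 in aged and 8.24 and 8.67 in young round spermatids, against 7.65 and 7.71 in aged and 7.69 and 7.88 in young pachytene spermatocytes. Other lists did so too: 6 of 7 peritubular, 5 of 6 spermatogonia and all 10 round spermatid probe sets were higher, and none lower. Lower were 15 of 19 Sertoli cell probe sets (3 higher), 10 of 12 pachytene ones (2 higher) and 5 of 10 Leydig cell ones (1 higher). Endothelial and blood cell markers were mixed, with 2 higher and 3 lower. The part of these cells in the Casp1 result was not tested. In order of level, Casp1 was highest in young round spermatids, then in aged round spermatids, young pachytene spermatocytes and aged pachytene spermatocytes, of which only the 2 pachytene groups overlapped without passing the age test. The 2 round spermatid groups overlapped as well, and aged round spermatids lay above all young pachytene spermatocytes.

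Diablo was lower in round spermatids. It had 13.24, 13.37 and 13.57 log2 units in aged and 12.10, 12.73 and 13.12 in young round spermatids, against 14.15, 14.20 and 14.22 in aged and 13.83, 14.08 and 14.14 in young pachytene spermatocytes. All 12 round spermatid arrays lay below all 12 pachytene arrays. The difference was -1.06 (SE 0.08, adjusted p = 1.82e-11), between -1.07 and -0.94 under the other scalings and -0.96 without young rats 1, 10 and 11. From the group means of the aged rats alone it was -0.79, and from those of the young rats -1.33. Of the marker lists, 15 of 19 Sertoli cell and 10 of 12 pachytene probe sets were lower in round spermatids too, with 3 and 2 higher. All 10 round spermatid probe sets and 20 of 22 macrophage and leukocyte ones ran the other way. The part of these cells in the Diablo difference was not tested. In order of level, Diablo was highest in aged pachytene spermatocytes, then in young pachytene, aged round and young round spermatids, and no neighbours in that order overlapped.

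Casp2 (1367890_at) was higher in round spermatids, at 8.94, 9.11 and 9.19 log2 units in aged and 8.76, 9.02 and 9.16 in young rats, against 8.13, 8.30 and 8.42 in aged and 8.36, 8.50 and 8.72 in young pachytene spermatocytes. The difference was 0.64 (SE 0.05, adjusted p = 5.58e-11), but 0.17 with the arrays centred on the added-RNA controls. Its second probe set ran the other way by -0.11, and turned to 0.065 with that centring. Casp8 was higher by 0.36 (1380297_at, adjusted p = 9.77e-10) and 0.07, or by 0.45 and 0.25 with that centring. Casp9 gave -0.17, 0.07 and 0.23 on its 3 probe sets, which disagreed in direction, and -0.64, 0.25 and 0.15 with that centring. Apaf1 gave 0.16 on 1369198_at and 0.01 on 1369197_at, of which the second was not called. Casp6 differed by 0.16 and Xiap (1379555_at) by -0.09, and both turned sign, to -0.13 and 0.053, with centring on the added-RNA controls.

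**Figure D3:**
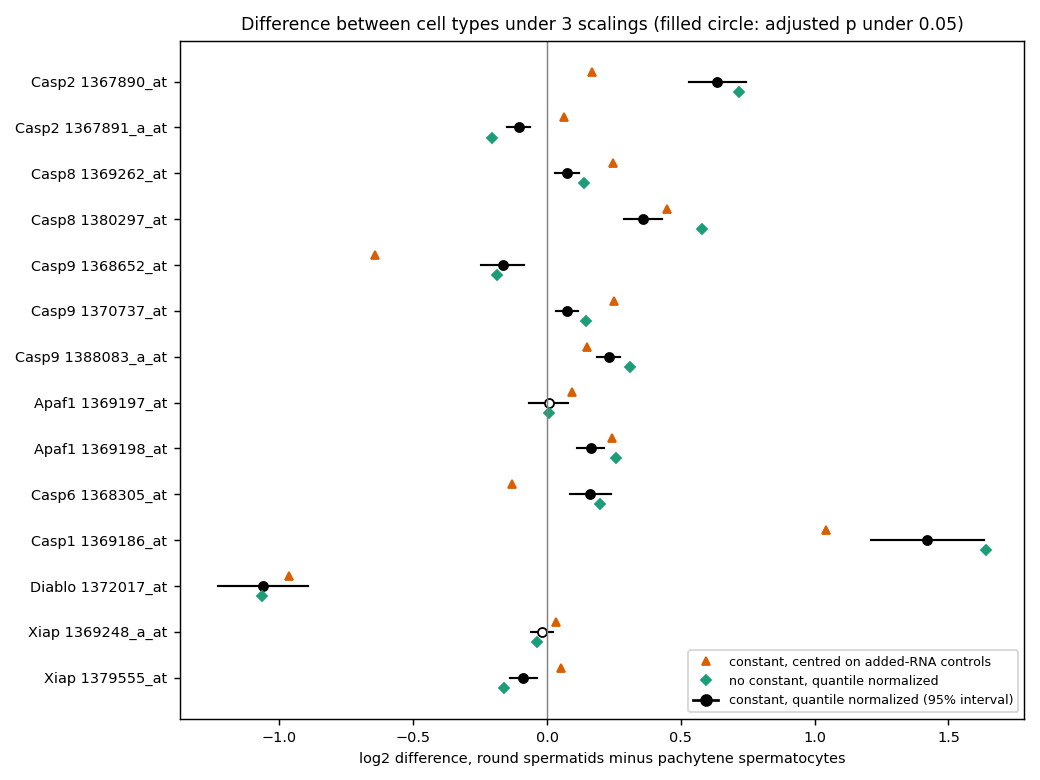
Log2 difference, round spermatids minus pachytene spermatocytes, for the 14 probe sets under 3 scalings; black circles with 95% intervals are the reported values, triangles and diamonds the same difference with other scalings. Casp1 (1.42) and Diablo (-1.06) stand clear of 0 under each scaling plotted, while Casp6, Casp2 (1367891_a_at) and both Xiap probe sets change sign.

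The neighbours of these genes in the cell death pathway were taken from 5 lists that hold 38 measured genes with 53 probe sets. In pachytene spermatocytes 17 of the 53 were higher and 5 lower in aged rats, against 24.2% higher and 17.7% lower of all probe sets. In round spermatids 4 were higher and none lower, against 10.5% and 10.6% of all. The median difference over the lists was 0.11 in pachytene and 0.02 in round spermatids, against 0.05 and 0.00 over all. The counts depended on the scaling, and the alternatives given for these lists were chosen after seeing the data. On the values as deposited 3 were higher and 24 lower in pachytene spermatocytes, and 38 higher and none lower in round spermatids. Without young rats 1, 10 and 11, 14 of the 22 pachytene calls and 2 of the 4 round spermatid calls were kept. Among mitochondrial factors and IAP proteins, Aifm1, a mitochondrial factor encoded on the X chromosome, fell in aged pachytene spermatocytes by 1.17 (adjusted p = 0.00151), and by 0.87 without the 3 rats. The IAP gene Birc2 rose by 0.52 there (adjusted p = 0.00732) and by 0.40 in round spermatids (adjusted p = 0.0372). Without the 3 rats these were 0.24, still called, and 0.20, no longer called. Birc5, an IAP family member that acts in cell division, rose by 0.69 in pachytene spermatocytes (adjusted p = 0.0125), and by 0.30 without the 3 rats. Of 18 probe sets of death receptors and adaptors 2 were higher and 3 lower with age in pachytene spermatocytes, and none was called in round spermatids (limma). Ripk1 (1371529_at), a kinase at death receptors, fell by 0.60, and its second probe set gave -0.07 (adjusted p = 0.309). Casp8ap2 (1385639_at) fell by 0.50, and its second probe set gave -0.15 (adjusted p = 0.265). Cradd, the adaptor of Casp2, rose by 0.56, but by 0.28 without the 3 rats, and gave 0.13 and no call on the values as deposited. Ripk1 and Casp8ap2 kept their calls in both settings. Of the caspases outside the 8 genes, Casp12 rose by 0.18 (adjusted p = 0.0489) and Casp4 gave 0.09. Casp12 lost its call without the 3 rats and turned to -0.15 on the values as deposited.

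Among 20 probe sets of caspase substrates 10 were higher and 1 lower in aged pachytene spermatocytes, and 3 were higher in aged round spermatids. The shares of all probe sets were 24.2% higher and 17.7% lower in pachytene spermatocytes and 10.5% higher in round spermatids. On the values as deposited none of the 20 was called higher and 7 were called lower in pachytene spermatocytes, so the direction of this list depended on the scaling. Without young rats 1, 10 and 11, 6 were higher there. After quantile normalization, in pachytene spermatocytes the kinase Pak2 (1369650_at) rose by 0.38, the actin-severing protein Gsn by 0.47 and the lamin Lmnb1 (1368811_at) by 0.44. All 3 kept their calls without the 3 rats, and on the values as deposited they gave -0.032, 0.08 and 0.09, with no call. In round spermatids Acin1, which takes part in chromatin condensation, rose by 0.33, Pak2 (1388345_at) by 0.17 and Lmnb1 (1368811_at) by 0.17, of which Lmnb1 lost its call without the 3 rats. Of 5 inflammasome probe sets 2 were higher in aged pachytene spermatocytes, the pyrin gene Mefv by 0.71 and Il18 by 0.35, and none was called in round spermatids (limma). Without the 3 rats Mefv gave 0.45 and was called, and Il18 gave 0.12 and was not. On the common scale the age effect was called as different between the cell types for Pak2 (1369650_at, -0.39), Fas (1369900_at, -0.11), Mefv (-0.30) and Ripk1 (1371529_at, 0.24). Each is given as round spermatids minus pachytene spermatocytes. Without the 3 rats Fas and Mefv lost that call. The Ripk1 pachytene means on that scale were 7.62 in aged and 7.92 in young rats, closer together than within the cell type.

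**Figure D4:**
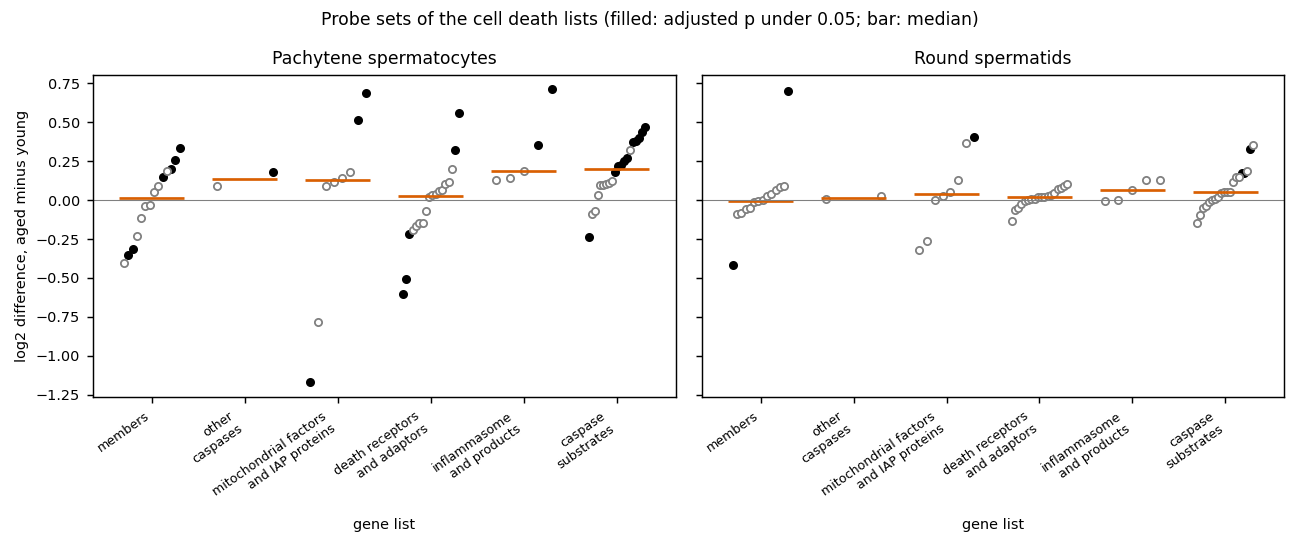
Log2 difference with age, aged minus young, of every probe set in the 8 genes (members) and in 5 lists of neighbouring genes, in pachytene spermatocytes (left) and round spermatids (right); each point is a probe set, filled where the adjusted p was under 0.05, and the orange bar is the median. After quantile normalization 17 list probe sets were called higher and 5 lower in pachytene spermatocytes, and 4 higher and none lower in round spermatids.

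Between cell types 24 of the 53 list probe sets were higher and 26 lower in round spermatids, where 48.3% of all were higher and 38.7% lower. Without young rats 1, 10 and 11, 47 of these 50 calls were kept. Septin4, which gives rise to an IAP antagonist and is a component of the sperm tail, was higher by 2.35, and Birc3 by 0.87, while the protease Htra2 was lower by 0.76 (difference -0.76). Il18 was lower (difference -1.25) and Il1b and Pycard were higher, by 0.38 and 0.32. Among receptors and adaptors Fas was higher by 0.39 on 1369900_at and by 0.19 on 1384842_s_at, and gave -0.02 and no call on 1397221_s_at. Its ligand Faslg was higher by 0.49, and Pidd1 was lower (difference -0.59). Of the substrates, Pak2 (1388345_at, difference -1.68), Lmnb1 (1373897_at, -1.25) and Parp1 (-1.07) were lower, and other probe sets of Pak2 and Lmnb1 were higher. Casp12 and Casp4 were both lower on the common scale (differences -0.46 and -0.06). For these lists no other scaling was tried between the cell types. The added-RNA controls kept an SD of 0.29 log2 units on the common scale. Differences near or below that SD, such as those of Casp4, Pycard and Fas (1384842_s_at), are given as values.

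Genes whose level over the 24 arrays on the common scale ran most like each gene were found by Pearson's r, as a description. The 24 points fall in the same 2 cell types, and r includes the difference between them. For Diablo these were Ptges3 (0.994), Slc2a3 and Ube2s, and for Casp1 Hal (0.993), Tbc1d4 and Ptov1. For Casp2 they were Swt1 (0.984), Copb1 and Ccdc66, and for Casp8 Lrp5 (0.954), Batf3 and Lrrfip1. Casp9 ran most like Zfyve19 (0.938), Oard1 and Pomk, and Apaf1 most like Sfrp4 (0.930), Pde6g and Mchr1. The lowest top values belonged to Casp6, with Disp1 (0.855), Cpne2 and Capn1, and to Xiap, with Gprasp2 (0.834), Slc44a1 and Ptpn7.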

How the data were processed

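The deposited values are log2 signals per probe set, 1 column per array; the program and background correction that made them are not given in the sources used here. Of 31099 probe sets, 57 controls were left out and 31042 tested. Names came from the platform annotation, updated by gene ID (14167 of 14217 genes were matched in the reference); 436 probe sets had several symbols and 9780 none, and those were not named.

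Age effects were tested with limma 3.58.1 (R 4.3.3; lmFit, eBayes, Benjamini-Hochberg over all 31042) on values quantile normalized within each cell type. For the cell type difference and the difference of the age effect, 84.5 was added to the linear pachytene values, which brought the mean difference of the 45 added-RNA controls to 0 (0.608 before), and the 24 arrays were then quantile normalized together. A value was called at an adjusted p under 0.05. The fits were checked on simulated data.

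All 8 genes are named with every single-symbol probe set; from each pathway list up to 3 called probe sets per comparison, by smallest p and 1 per gene, are named (a second value is given where a named gene was called in the other cell type), and for similar patterns the 3 genes of highest r. Genes, lists and tests were chosen with earlier results of these data known. Aged and young rats are different animals. Fractions of 1 rat deviated together with r from -0.0786 to 0.38, and in 6 of 12 rats the best match of a fraction was the same rat's other one; with the rat as a block no call among the 14 probe sets was lost. Alternatives covered scaling, dim probe sets, variance model, array weights, blocks, each rat left out, and young rats 1, 10 and 11 left out. The number of arrays limits the precision.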

Additional observations from a re-analysis of the deposited data

Results flagged for a closer look

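Of 56 groups of 6 arrays tested for a single array far from the others (Dixon's test at 95%), 5 were picked out, where chance gives about 1 in 20. In young round spermatids Casp9 (1368652_at) reached 8.456 in rat 2, with the next rat at 8.302. In aged pachytene spermatocytes Casp9 (1370737_at) reached 5.585 in rat 5, with the next at 5.356. In aged round spermatids Casp9 (1388083_a_at) was lowest in rat 10, at 7.835, with the next at 7.9. Young pachytene rat 1, one of the arrays that stood apart, had the highest Apaf1 (1369197_at, 6.831) and the lowest Diablo (13.77) of its group. On the common scale the age effect differed between the cell types, by limma's test of the difference, for Diablo (0.543) and for Casp9 (1388083_a_at, -0.128). Each is given as round spermatids minus pachytene spermatocytes. The Diablo call was lost without each of 6 rats in turn and under 2 other scalings. The Casp9 call was lost without each of 10 rats in turn and under 7 of 10 other settings, 2 of which turned its direction.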

How the results depend on the processing

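The calls that held under every alternative that kept their probe set (the filter on the 40% dimmest left out Xiap and some others) were Xiap (1379555_at) with age in pachytene spermatocytes, Diablo with age in round spermatids, and 7 of the 12 cell type calls; neither call for a difference of the age effect did. Other scalings moved the median age effect of all probe sets to -0.241 (values as deposited), -0.123 (hybridization controls) and 0.135 (median centring) in pachytene spermatocytes, and to 0.142 and 0.181 in round spermatids for the first 2.

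In pachytene spermatocytes 11631 probe sets and 6 of the 14 were called with age; values as deposited gave 19153, and leaving out young rats 1, 10 and 11 gave 7600 and 3 of the 14. Leaving out each rat gave 8958 to 12541 and 4 to 7. In round spermatids 5316 and 2 were called; median centring gave 1 of the 14, values as deposited 17172 and 8, hybridization controls 8716 and 4, without the 3 rats 1734 and 1, and leaving out each rat 3612 to 6559 and 1 to 3. For the cell type, 26419 and 12 were called; without the 40% dimmest probe sets 16873 of 18625 and 6 of the 6 remaining, because fewer were tested, and without each rat 26049 to 26292 and 12. For the difference of the age effect, 4039 and 2 were called; the constant with median centring gave 11401 and 4, the constant with no further scaling 25154 and 11, without the 3 rats 2561 and 1, and each of no constant, a trended robust variance and array weights 1. Leaving out each rat gave 2291 to 4824 and 0 to 3. Calls were gained as well as lost. With age, 7 of the 8 probe sets not called in pachytene spermatocytes were called under at least 1 alternative or left-out rat. In round spermatids this held for 7 of 12, for the cell type for 1 of 2, and for the difference of the age effect for 11 of 12. The cause was not tested.

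With a replicate block over the 3 numbers that aged and young rats share (different animals; r -0.736 to 0.076), 4 of the 14 were called in pachytene and 1 in round spermatids. With the rat as a fixed replicate block 12 and 2 were called for the cell type and the difference of the age effect, and as a random block 12 and 3.

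Directions that reversed on the values as deposited were, with age in pachytene spermatocytes, Casp8 1369262_at (-0.10), Casp9 1368652_at (-0.062) and 1388083_a_at (-0.12) and Apaf1 1369198_at (-0.28), and in round spermatids Casp9 1388083_a_at (0.14) and Xiap 1379555_at (0.13). With hybridization controls Casp9 1388083_a_at was -0.0052 in pachytene spermatocytes. For the cell type, Casp2 1367891_a_at, Casp6 and Xiap 1379555_at turned to 0.084, -0.11 and 0.072 with the constant and median centring, and to 0.065, -0.13 and 0.053 with no further scaling and with centring on the added-RNA controls (chosen after seeing the data). For the difference of the age effect, no further scaling gave Casp9 1368652_at 0.28 and 1388083_a_at 0.21, Apaf1 1369197_at 0.33 and 1369198_at 0.26 and Casp6 0.43, and the added-RNA centring gave Casp9 1388083_a_at 0.050.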
